A study of Apis cerana with 9 samples.

Results

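Major royal jelly proteins are a family of secreted glycoproteins that, in the honey bee *Apis mellifera*, make up most of the protein of royal jelly and worker jelly, the food given to larvae and queens. In that species they are made in the paired hypopharyngeal glands of the head, which are large in nurse workers that feed brood and shrink in foragers, where the same glands turn to enzymes that convert nectar sugars. The family arose within the insect yellow proteins, and its genes lie side by side in a tandem block.

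The members described here are 4 rows of a gene table of *Apis cerana* with 12757 rows. LOC107997171 and LOC107997173 are described as major royal jelly protein 2-like, LOC107997174 as major royal jelly protein 5-like and LOC107997178 as major royal jelly protein 5 precursor. They were chosen by their descriptions and with earlier results of the same libraries in view, in which royal jelly protein transcripts were far scarcer in bees with pollen than in bees without it. The difference from bees without pollen is therefore given as a description with no test, and only the difference between the pollen groups was tested. That the whole family took a smaller share of counts in rapeseed than in pear libraries was known as well, so those tests are no independent support for it. The descriptions do not set the members apart from the rest of the family. The table holds 13 rows described as major royal jelly protein, and of the 9 rows that are no members LOC107997172 and LOC107997170 also read 5-like, and LOC107994025 and LOC107997179 also read 2-like.

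RNA of the proboscis, the sucking mouthpart, of *A. cerana* bees was sequenced in 9 libraries. They are 3 libraries of rapeseed pollen-carrying bees (rapeseed), 3 of pear pollen-carrying bees (pear) and 3 of non-pollen-carrying bees (non-pollen). The labels give no caste, age, colony, day or strain, and do not say whether a library is 1 bee or a pool, so that p-values cover only the spread between these libraries, which may be technical. Total counts ran from 49085060 to 53518340 in the rapeseed, from 45447582 to 46167296 in the pear and from 43034759 to 64306245 in the non-pollen libraries.

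All 4 members lie on the plus strand of scaffold NW_016019131.1, in a stretch of 42.97 kb. LOC107997171 runs from 495529 to 498959, LOC107997174 from 519278 to 522798, LOC107997178 from 525052 to 528276 and LOC107997173 from 534997 to 538498. Each spans 3225 to 3521 bases, and neither the exon structure nor the genome build is stated in the sources used here. Among the RefSeq genes of AcerK_1.0, used for names and gene order only, LOC107997178 has the synonym MRJP5, LOC107997172 has the synonyms MRJP1 and MRJP4, and LOC107997171, LOC107997173 and LOC107997174 have none.

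LOC107997171, a 2-like gene, was the most abundant member in every library. Its FPKM (fragments per kilobase of transcript, scaled to the fragments of the library) was 382, 323 and 309 in the rapeseed libraries, 790.3, 1053 and 1211 in pear, and 56242, 55014 and 55184 in non-pollen libraries. The 3 groups did not overlap, and the rapeseed libraries were the lowest.

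LOC107997173, the other 2-like gene, had the same order of groups. Its FPKM was 53.1, 43.7 and 44.7 in the rapeseed libraries, 141, 192 and 211 in pear, and 9268, 9130 and 9041 in non-pollen libraries. Again no group overlapped another.

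LOC107997174, the 5-like gene, stood in another order. Its FPKM was 99.3, 117 and 106 in the rapeseed libraries, 70.1, 97.3 and 95.8 in pear, and 2795, 2632 and 2735 in non-pollen libraries. Here the rapeseed libraries lay just above the pear libraries.

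LOC107997178, the protein 5 precursor, was nearly level between the pollen groups. Its FPKM was 154.9, 156 and 150.5 in the rapeseed libraries, 133, 174 and 186 in pear, and 7857, 7638 and 7664 in non-pollen libraries. The rapeseed values fell inside the pear range, and pear replicate 1 was the lowest pear library for all 4 members.

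**Figure D1:**
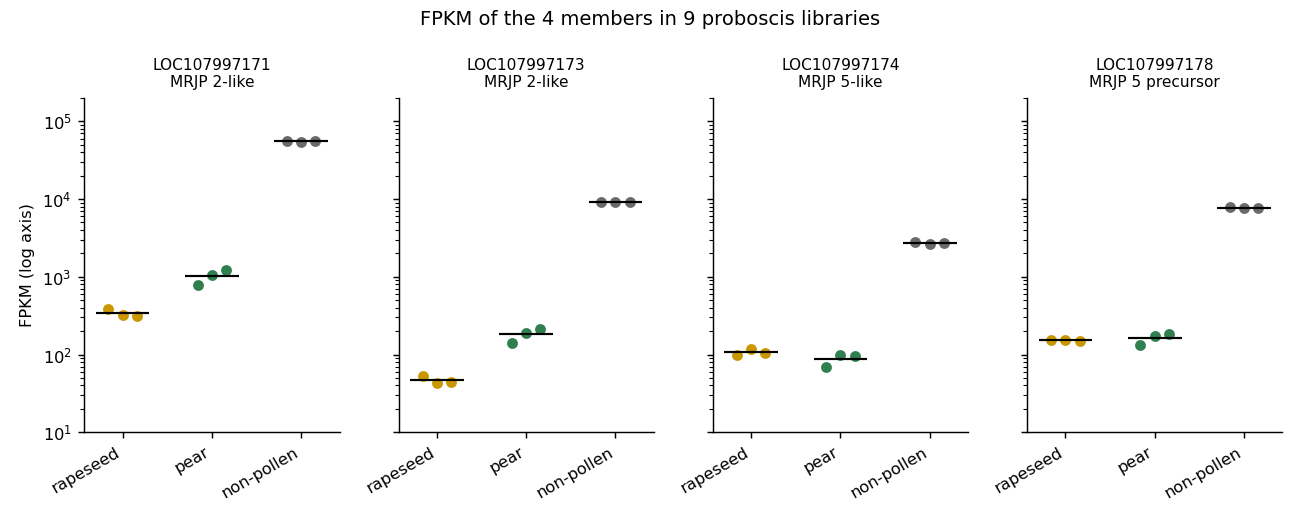
FPKM of each member on a log axis, with 1 point per library and a bar at the mean of 3 libraries, for the rapeseed, pear and non-pollen groups. The non-pollen libraries are the highest in each panel, the rapeseed libraries lie below the pear libraries for LOC107997171 and LOC107997173, and the pollen groups are close for LOC107997174 and LOC107997178.

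The order of the members by FPKM changed between groups. In the rapeseed libraries it was LOC107997171 (338 ± 38.6, SD, n = 3), LOC107997178 (154 ± 2.92), LOC107997174 (108 ± 9.04) and LOC107997173 (47.2 ± 5.21), and no neighbours in this order overlapped. In the pear libraries it was LOC107997171 (1018 ± 213), LOC107997173 (181 ± 36.1), LOC107997178 (164 ± 27.5) and LOC107997174 (87.7 ± 15.3), where the ranges of LOC107997173 and LOC107997178 overlapped. In the non-pollen libraries it was LOC107997171 (55480.1 ± 665), LOC107997173 (9146 ± 114), LOC107997178 (7719.8 ± 120) and LOC107997174 (2721 ± 82.5), with no overlap. LOC107997173 was thus second among the members in the pear and non-pollen libraries and last in the rapeseed libraries. Among all 12757 genes, by mean FPKM, LOC107997171 ranked 204 in rapeseed, 55 in pear and 2 in non-pollen, and LOC107997173 ranked 1527, 399 and 6 in the same groups. LOC107997178 ranked 460 in rapeseed, 429 in pear and 8 in non-pollen, and LOC107997174 ranked 665, 834 and 11.

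Together the 4 members took 0.109% ± 0.00674 (SD, n = 3) of all counts in the rapeseed group, 0.245% ± 0.0489 in the pear group and 12.8% ± 0.187 in the non-pollen group. The 2-like pair, LOC107997171 and LOC107997173, accounted for 0.0649% ± 0.00733, 0.202% ± 0.0418 and 11.0% ± 0.152 of counts in the same groups. LOC107997174 and LOC107997178 accounted for 0.0445% ± 0.00173, 0.0431% ± 0.00725 and 1.81% ± 0.0361. So the 2-like pair held about the whole difference between the pollen groups, and the other pair held almost the same share of counts in both. All royal jelly protein rows together took 0.279% ± 0.0190 of counts in the rapeseed, 0.625% ± 0.130 in the pear and 32.3% in the non-pollen group (lowest library 32.1%, highest 32.4%).

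A share this large presses down every other share in the non-pollen libraries. Set against the counts of all genes outside the family, the members had 0.110 ± 0.00678 counts per 100 in the rapeseed group, 0.247 ± 0.0495 in the pear group and 18.9 ± 0.307 in the non-pollen group (SD, n = 3 each). On this scale the non-pollen level was 172 times the rapeseed level and 76.5 times the pear level.

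With TMM scaling, which sets libraries equal on the bulk of genes that are neither very high nor very changed, the differences from non-pollen were of similar size. The log2 fold change of LOC107997171 was -7.86 in rapeseed (standard error 0.136) and -6.31 in pear (standard error 0.127), both against non-pollen. That of LOC107997173 was -8.10 (0.130) in rapeseed and -6.20 (0.119) in pear. That of LOC107997178 was -6.15 (0.0958) in rapeseed and -6.10 (0.0956) in pear. That of LOC107997174, the least changed member, was -5.17 (0.0991) in rapeseed and -5.50 (0.101) in pear. These comparisons share the non-pollen libraries. In bulk tissue, fewer cells of a type and less RNA per cell cannot be told apart.

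Between the pollen groups the members did not move as one, as the plot of log2 fold changes between rapeseed and pear shows. Both 2-like members were lower with rapeseed than with pear, LOC107997174 was slightly higher, and LOC107997178 did not pass the test. The log2 fold change of LOC107997173, by edgeR's quasi-likelihood test with Benjamini-Hochberg adjustment, was -1.90 (SE 0.102, 95% interval -2.11 to -1.69, adjusted p = 1.08e-11), a 3.74-fold lower level in rapeseed. LOC107997171 had -1.55 (SE 0.104, interval -1.77 to -1.33, adjusted p = 4.59e-10 by the same edgeR test), a 2.93-fold lower level. LOC107997174 had 0.33 (SE 0.0867, interval 0.15 to 0.52, adjusted p = 0.0120 by the same edgeR test), a 1.26-fold higher level. LOC107997178 had -0.05 (SE 0.0784, adjusted p = 0.739 by the same edgeR test), and its interval allows a fold of 0.860 to 1.08. Of all 9259 genes tested, 4.96% were called lower and 7.94% higher in rapeseed than in pear, while 14.8% had rapeseed CPM (counts scaled to the TMM library size) wholly below and 15.7% wholly above pear.

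The small difference of LOC107997174 is less firm than those of the 2-like members. Its call was lost without rapeseed replicate 2, the highest rapeseed library (log2 fold change 0.27, adjusted p = 0.0856 from edgeR), and with DESeq2 (0.34, adjusted p = 0.0999). Without pear replicate 1, the call of LOC107997178 appeared (log2 fold change -0.20, adjusted p = 0.00103 from edgeR). The calls of LOC107997171 and LOC107997173 were made under every alternative run.

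**Figure D2:**
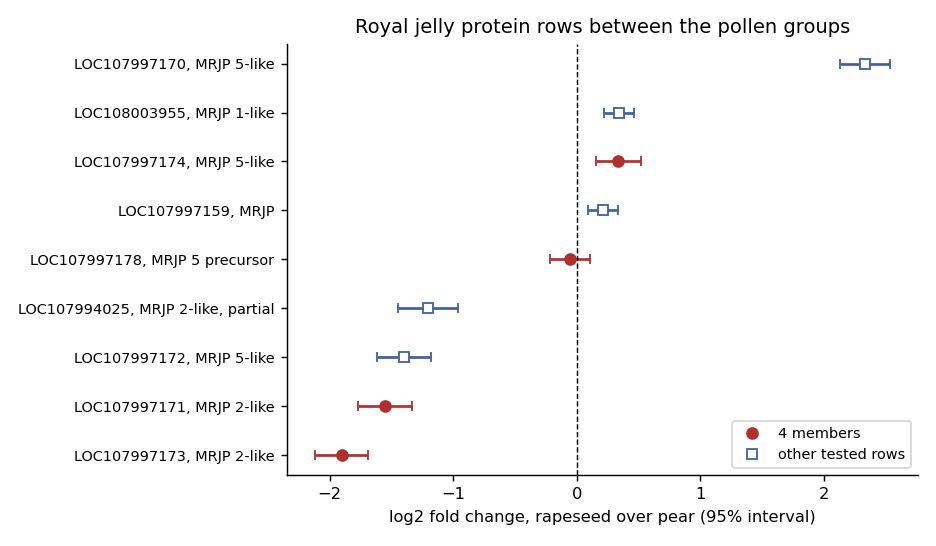
Log2 fold change of rapeseed over pear with its 95% interval for the 9 tested royal jelly protein rows, with filled circles for the 4 members and open squares for the others. LOC107997173 (-1.90) and LOC107997171 (-1.55) are lowest, LOC107997178 (-0.05) lies at 0, and LOC107997170 (2.33), no member, is highest.

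The split of counts among the 4 members does not depend on any scaling between libraries. LOC107997171 held 51.9% ± 2.77 of the members' counts in rapeseed, 69.8% ± 0.888 in pear and 73.6% ± 0.0555 in non-pollen libraries (SD, n = 3 each). LOC107997173 held 7.31% ± 0.445, 12.6% ± 0.154 and 12.2% ± 0.0776 in the same groups. LOC107997178 held 24.7% ± 1.23, 11.8% ± 0.439 and 10.7% ± 0.0295, and LOC107997174 held 16.1% ± 1.96, 5.85% ± 0.391 and 3.49% ± 0.0727. The pear libraries thus had nearly the non-pollen split, with LOC107997174 at a larger share, while in the rapeseed libraries LOC107997174 and LOC107997178 each held more than LOC107997173. The spread of the split between non-pollen libraries was small, so that even the pear shares of LOC107997178 (11.3% to 12.2%) lay above all 3 non-pollen libraries (10.7% each).

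**Figure D3:**
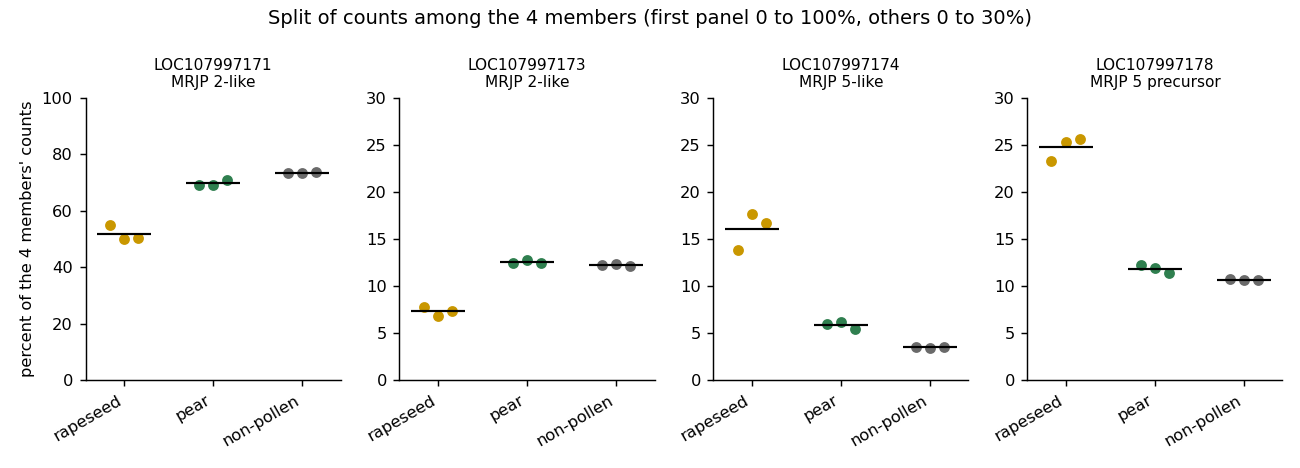
Percent of the 4 members' summed counts held by each member, with 1 point per library and a bar at the mean of 3 libraries; the first panel runs from 0 to 100% and the others from 0 to 30%. LOC107997171 and LOC107997173 hold less in rapeseed (51.9% and 7.31%) than in pear (69.8% and 12.6%), and LOC107997174 and LOC107997178 hold more (16.1% and 24.7%, against 5.85% and 11.8%).

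Ratios of FPKM between pairs of members showed the same turn. LOC107997178 stood at 2.92 to 3.57 times LOC107997173 in the rapeseed libraries, 0.882 to 0.946 times in the pear libraries and 0.837 to 0.848 times in the non-pollen libraries. LOC107997174 stood at 0.260 to 0.363 of LOC107997171 in rapeseed, 0.0791 to 0.0923 in pear and 0.0478 to 0.0497 in non-pollen libraries. Even the 2-like members moved apart a little, with LOC107997173 at 0.135 to 0.145 of LOC107997171 in rapeseed, 0.174 to 0.182 in pear and 0.164 to 0.166 in non-pollen libraries. For each of the 6 ratios between members, the 3 rapeseed libraries lay on one side of the 3 pear libraries. All 6 come from the same 4 genes and are not separate results. How often ratios of other genes part in this way was not tested. Of single genes, 14.8% had rapeseed CPM wholly below and 15.7% wholly above pear. An exact two-sided permutation test of rapeseed against pear on the log2 ratio of counts gave p = 0.1 for each of the 6 ratios. That is the smallest value that 3 against 3 libraries can give, and it was 0.106 after Benjamini-Hochberg adjustment over 19 such comparisons. The share of counts of the 4 members together gave the same p, and the share of LOC107997174 and LOC107997178 together gave p = 0.9 (exact two-sided permutation test).

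Close copies such as these can draw on the same reads, and the rule for reads that match more than 1 of them is not given in the sources used here. The values of single members are therefore less certain than their sum.

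The other royal jelly protein rows give the family around the members. Of the 9, 5 reached an FPKM of 1 in 3 or more libraries, the filter for testing, as did all 4 members. LOC107997172, described as 5-like, took the most counts of any gene in the non-pollen libraries. Its FPKM was 355, 307 and 297 in rapeseed, 663, 901 and 1037 in pear, and 44396, 45553 and 44808 in non-pollen libraries. LOC107994025, a partial 2-like row on the short scaffold NW_016018318.1 (3352 to 4268, minus strand), had 647, 553 and 543 in rapeseed, 1003, 1441 and 1676 in pear, and 84283, 82150 and 82893 in non-pollen libraries. Both were lower with rapeseed than with pear, by a log2 fold change of -1.40 for LOC107997172 (adjusted p = 2.5e-09 from edgeR) and -1.20 for LOC107994025 (adjusted p = 1.28e-07 from edgeR). So LOC107997172, though described as 5-like, stood with the 2-like members and not with LOC107997174 and LOC107997178.

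LOC107997170, a 5-like row downstream of the members, differed most between the pollen groups. Its FPKM was 88.3, 91.5 and 92.3 in rapeseed, 17.9, 19.5 and 18.4 in pear, and 171, 148 and 224 in non-pollen libraries. The pear libraries were far below the others, with a log2 fold change of 2.33 for rapeseed against pear (SE 0.0974, adjusted p = 1.33e-13 by edgeR). Against non-pollen its log2 fold change was -1.50 in rapeseed and -3.83 in pear, a smaller fall than that of any member in both groups.

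LOC107997159 and LOC108003955 were the tested rows that were higher in bees with pollen. LOC107997159, described only as major royal jelly protein, had an FPKM of 52.8 ± 1.72 in rapeseed, 47.0 ± 0.691 in pear and 24.9 ± 0.990 in non-pollen libraries (SD, n = 3 each), although it is the next row beyond LOC107997173 on the same strand. LOC108003955, a 1-like row on scaffold NW_016017667.1, had 62.5 ± 2.53, 50.9 ± 1.46 and 22.2 ± 2.09. Among the 5 tested rows outside the members, 3 were lower and 2 higher than non-pollen in rapeseed, and the same 3 were lower and the same 2 higher in pear. The fall of the family was known beforehand, and LOC107997172 and LOC107994025 alone held 16.1% and 3.29% of non-pollen counts. These counts of rows are therefore a description. The share of all genes called lower was 30.0% in rapeseed and 27.2% in pear, and that called higher 29.3% and 28.5%. The other 4 rows were near 0: LOC107997179 had 0 to 2 counts in rapeseed, 2 to 6 in pear and 18 to 54 in non-pollen libraries, LOC107994024 had 8 to 14, 7 to 13 and 14 to 34, LOC107997168 had 27 to 78, 38 to 71 and 8 to 35, and LOC114577447 had at most 2 counts in any library.

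Genes between and beside the members were compared as a description. In the table, LOC114577448, LOC107997172, LOC107997181 and LOC107997179 lie between the first and the last member. Upstream, the yellow-like gene LOC107997175, of the family from which royal jelly proteins arose, ends 2.33 kb before LOC107997171. Its FPKM was 52.6 ± 2.01 in rapeseed, 48.4 ± 1.59 in pear and 35.2 ± 0.887 in non-pollen libraries, with log2 fold changes against non-pollen of 0.08 and -0.08 in rapeseed and pear, neither past the test (adjusted p = 0.172 and 0.150 from edgeR). Downstream of LOC107997170, the yellow-like gene LOC107997244 had 0.814, 0.575 and 0.503 FPKM in rapeseed, 0.351, 0.391 and 0.541 in pear, and 3.52, 2.11 and 2.05 in non-pollen libraries. Its log2 fold change against non-pollen was -2.51 in rapeseed and -3.11 in pear, given without a test because the row passed the filter through the non-pollen libraries alone. The next tested gene, LOC107997203 (uncharacterized), was slightly lower than non-pollen, at -0.14 in rapeseed and -0.13 in pear (adjusted p = 0.0117 and 0.0181 from edgeR).

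**Figure D4:**
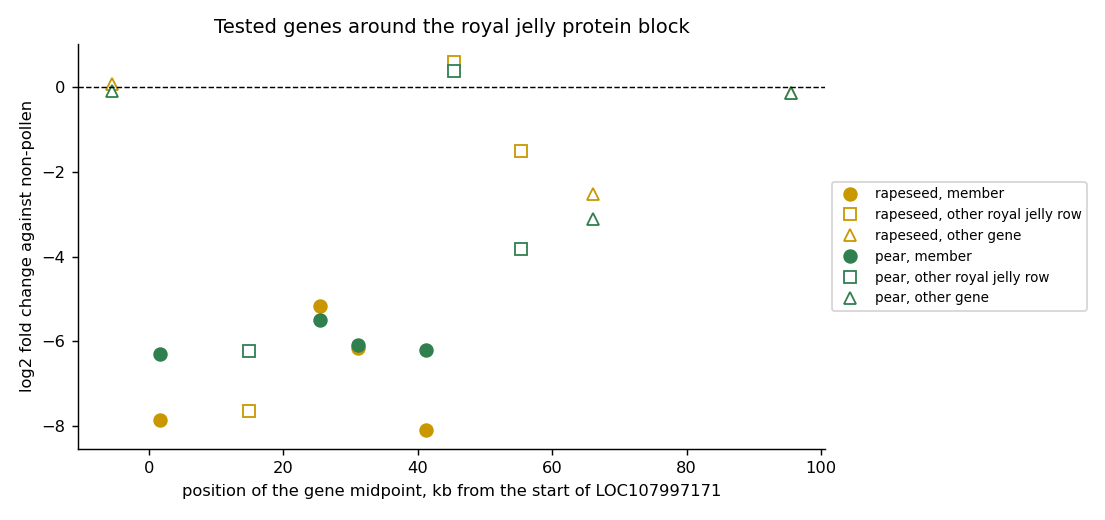
Log2 fold change against non-pollen, for rapeseed and pear, of tested genes around the members, by distance in kb from the start of LOC107997171; genes with under 20 counts on average in a group are left out. The members lie between -5.17 and -8.10, LOC107997159 lies above 0 beside them, and the yellow-like gene LOC107997175 (left) and LOC107997203 (right) lie near 0.

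Genes outside the family were ranked by how like the summed members their levels were over the 9 libraries. Likeness was the root mean square difference between log2 CPM profiles, each centred on its own mean, over 5330 described genes outside the family whose mean FPKM reached 10 in any group, whose median difference was 3.26. Synaptic vesicle glycoprotein 2A (LOC108002484) was nearest at 0.464, with an FPKM of 1.02 ± 0.137 in rapeseed, 2.12 ± 0.245 in pear and 59.1 ± 2.66 in non-pollen libraries. Aminopeptidase N (LOC107993198), of a family of membrane peptidases, followed at 0.480 with 1.71 ± 0.0529, 3.37 ± 0.356 and 94.8 ± 2.26. Like all of the 10 nearest genes except LOC107996362 and LOC108004028, both reached the mean FPKM of 10 through the non-pollen libraries alone. Since all of these genes were chosen for this profile, their levels are a description. Long-wavelength rhodopsin (LOC108000411), a light receptor of the compound eye, stood at 0.605, with 5.52 ± 0.604 in rapeseed, 6.26 ± 1.52 in pear and 236 ± 12.9 in non-pollen libraries. The others were an eisosome protein SEG2-like gene (LOC108000123, 0.552), a cysteine-rich venom protein 6-like gene (LOC107996362, 0.649), the uncharacterized LOC107996070 (0.706) and LOC108001112 (0.785), a hexamerin-like storage protein gene (LOC107995056, 0.735), alpha-amylase 4N-like (LOC108004028, 0.754) and venom acid phosphatase Acph-1-like (LOC108003353, 0.832). By the same measure LOC107997171 stood at 0.226, LOC107997173 at 0.363, LOC107997178 at 0.541 and LOC107997174 at 0.917 from the sum of which they are part, and LOC107997172 and LOC107994025, outside it, at 0.134 and 0.139. LOC107997170, LOC107997159 and LOC108003955 stood at 2.42, 3.48 and 3.65.

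**Figure D5:**
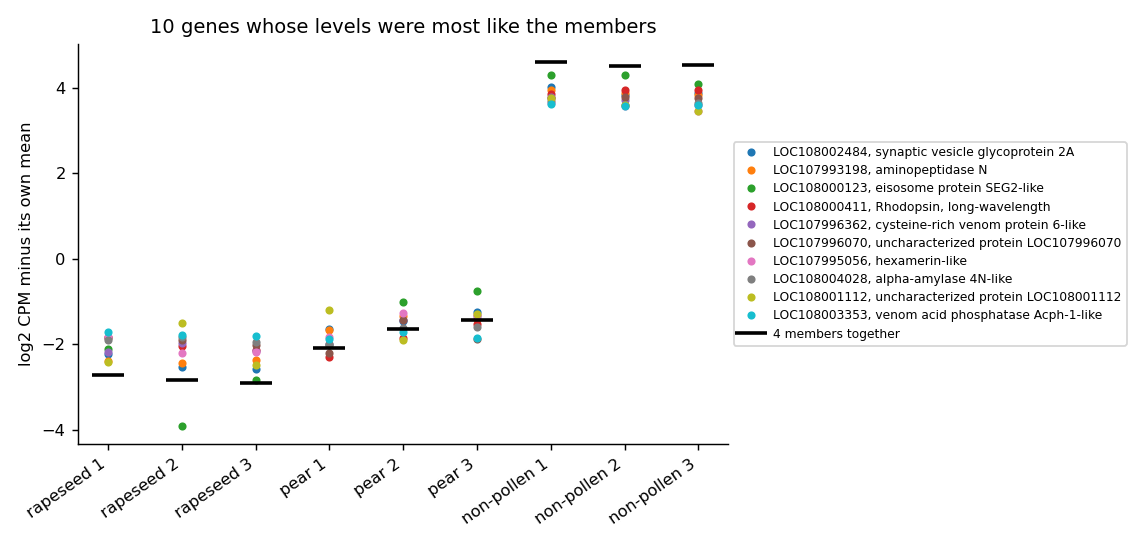
Log2 CPM in each library, minus the mean over the 9 libraries, of the 10 genes most like the members (points) and of the 4 members summed (black bars). All lie above 3 in the non-pollen libraries and below 0 in the rapeseed and pear libraries, and the summed members are the highest in each non-pollen library.

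Genes described as enzymes or peptides of gland secretions were set beside the members. Of 16 tested rows in a list of gland secretion enzymes, 7 were higher with rapeseed than with pear, and the other 9 did not pass the test, with a median log2 fold change of 0.041 (all tested genes, -0.007, with 7.94% called higher and 4.96% lower). Against non-pollen, 6 of the 16 were higher and 5 lower in rapeseed (medians 0.09 in the list and -0.02 in all genes), and 5 were higher and 7 lower in pear (medians -0.07 and -0.01). Of all tested genes, 29.3% were called higher and 30.0% lower in rapeseed, and 28.5% and 27.2% in pear. The list was matched on descriptions alone, and most of its tested rows are glucose dehydrogenase-like genes that are not known here to be gland products. It also holds a lysosomal alpha-glucosidase and neutral alpha-glucosidase AB, an enzyme of the endoplasmic reticulum. Alpha-glucosidase (LOC107993622), the sucrose-splitting enzyme that workers add to nectar, had an FPKM of 744 ± 0.751 in rapeseed, 519 ± 37.7 in pear and 8446 ± 183 in non-pollen libraries. It was thus higher in rapeseed than in pear (log2 fold change 0.56, adjusted p = 2.18e-08 from edgeR), where the 2-like members were lower. A glucose dehydrogenase-like gene (LOC107997822) had 550.8 ± 22.2, 486 ± 54.0 and 12213.5 ± 408, with a log2 fold change of 0.22 for rapeseed against pear (adjusted p = 0.0200 from edgeR). Alpha-amylase 4N-like (LOC108004028) had 45.0 ± 1.93, 52.1 ± 6.89 and 1463 ± 26.9, with -0.17 (adjusted p = 0.120 from edgeR). Defensin-1 (LOC107993803), whose *A. mellifera* counterpart is the royalisin of royal jelly, had 266 ± 5.78, 347 ± 11.4 and 2656 ± 55.9 and was lower in rapeseed than in pear (log2 fold change -0.34, adjusted p = 2.93e-06 from edgeR). Icarapin-like (LOC107994884), a secreted protein known from bee venom, had 1527, 1540.1 and 1861 on average in the same groups. Defensin-2 (LOC108000415), at a low level, had 1.76, 4.01 and 2.18 on average and was also lower in rapeseed than in pear (log2 fold change -1.14, adjusted p = 0.00481 from edgeR). In pear against non-pollen it did not pass the test (0.33, adjusted p = 0.282 from edgeR). Of the genes named here, both defensins thus shared the order of the pollen groups with the 2-like members, and alpha-glucosidase and the glucose dehydrogenase-like gene had the opposite order. Alpha-amylase 4N-like and icarapin-like (log2 fold change 0.03, adjusted p = 0.626 from edgeR) did not pass the test between the pollen groups.

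The mouthpart homeotic genes proboscipedia (LOC108000244, FPKM 67.2 in rapeseed, 63.6 in pear and 29.6 in non-pollen libraries on average), Sex combs reduced (LOC108000243; 22.6, 26.6 and 11.6) and Deformed (LOC108000493; 74.7, 65.3 and 55.1) were present in every group. With TMM scaling Deformed had a log2 fold change against non-pollen of -0.07 in rapeseed (adjusted p = 0.230 from edgeR) and -0.30 in pear (adjusted p = 1.32e-05 from edgeR), although its FPKM, which is scaled to all fragments of a library, was higher in both. Proboscipedia was higher than non-pollen with the same scaling, at 0.68 in rapeseed and 0.56 in pear (adjusted p = 1.97e-10 and 6.26e-09 from edgeR). So was Sex combs reduced, at 0.46 and 0.65 (adjusted p = 5.72e-05 and 7.92e-07 from edgeR). Gland secretion enzymes took 0.525% to 0.536% of counts in rapeseed, 0.417% to 0.467% in pear and 4.92% to 5.20% in non-pollen libraries. That share rests on a few abundant rows such as LOC107993622 and LOC107997822, and alpha-glucosidase isozyme II (LOC107995328) was higher than non-pollen by a log2 fold change of 1.31 in rapeseed and 0.93 in pear (adjusted p = 2.4e-15 and 9.52e-13 from edgeR). Of 8 tested eye genes (opsins, arrestin homologs and a phosphodiesterase subunit), LOC107996251, LOC107999889 and LOC114577754 passed the filter through the non-pollen libraries alone. No count is therefore given. The other arrestin homologs and opsins had log2 fold changes against non-pollen of -5.92 to -1.98 in rapeseed and -5.78 to -2.10 in pear. The phosphodiesterase subunit (LOC107998721) had 0.07 and 0.22, neither past the test (adjusted p = 0.653 and 0.144 from edgeR). The eye list took 0.00453% to 0.00468% of counts in rapeseed, 0.00442% to 0.00519% in pear and 0.0772% to 0.0834% in non-pollen libraries. A list of muscle genes took 7.68% to 7.71%, 7.92% to 8.16% and 3.73% to 3.80% of counts. Over its 25 tested rows the median log2 fold change against non-pollen was 0.42 in rapeseed and 0.49 in pear (all tested genes, -0.02 and -0.005). No count is given, because titin homolog LOC108000987 passed the filter through the non-pollen libraries alone. The list also holds myosin heavy chain 95F (LOC107993278) and a non-muscle myosin heavy chain (LOC107999997). Genes described as synaptotagmin, synaptobrevin or synapsin, meant as neuron markers, took 0.0590% to 0.0599%, 0.0573% to 0.0588% and 0.0503% to 0.0510%. Yet with TMM scaling the median log2 fold change of the 15 against non-pollen was -0.73 in rapeseed and -0.64 in pear. The list also holds synaptobrevin homolog YKT6 (LOC108002902) and the abundant extended synaptotagmin-2 (LOC107997916), which was higher than non-pollen by 0.26 and 0.28. No count is given, because LOC114577088 passed the filter only with the rapeseed libraries. Fat body genes (vitellogenins and hexamerins) took 0.0327% to 0.0337%, 0.0473% to 0.0512% and 0.0540% to 0.0575%. The most abundant row was the vitellogenin precursor gene LOC108000069 (FPKM 51.9, 79.0 and 66.6 on average in the same groups). Its log2 fold change against non-pollen was -0.86 in rapeseed and -0.30 in pear. That of hexamerin-like LOC107995056 was -5.62 and -5.01, while that of vitellogenin-like LOC107996917 was 0.69 and 0.89. Whether more gland, eye or other head tissue in the non-pollen libraries had a part in the members' levels was not tested. Between rapeseed and pear, where the members were 0.446 times as high in rapeseed, these lists did not all go one way. The eye list differed little in share, and the list of gland secretion enzymes was 1.19 times as high in rapeseed. Fat body genes took a smaller share in rapeseed (0.0331% on average) than in pear (0.0492%), the same order as the members.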

How the data were processed

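Groups were taken from the sample labels. The members and gene lists were chosen with earlier results of these data known. For each of 9 libraries the authors deposited gene counts, which are whole numbers, and FPKM. Poly(A) RNA was prepared with dUTP and sequenced from both ends. Tools named in the submitters' processing notes, with no roles given, are StringTie 2.1.6, HISAT2 2.2.1, cutadapt 1.9, edgeR and DESeq2. The genome build and strand setting were not given in the sources used here.

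Genes that reached an FPKM of 1 in 3 or more libraries (9259 of 12757) were fitted with edgeR 4.0.16 (R 4.3.3) on the deposited counts, with TMM scaling, the 3 groups in one fit, and Benjamini-Hochberg adjustment over all genes tested at a threshold of 0.05. Standard errors are the log2 fold change over the square root of its F statistic. The TMM factors were 0.773 to 0.800 in the non-pollen and 1.11 to 1.17 in the other libraries. The common biological coefficient of variation was 7.92%. No pair of replicates agreed within sampling noise (chi-square per degree of freedom 6.03 to 14.2). On simulated counts for rapeseed against pear over 9259 genes, the fit recovered 84.0% of 200 genes changed 1.5-fold and 96.5% of those changed 2-fold, with 6 and 12 false calls. In the simulation the pear and non-pollen groups had equal means, and the spread followed the fit's own estimate. These rates may therefore be better than those in the data. Alternatives were DESeq2 1.42.0, library totals alone, scaling without royal jelly rows, no filter, only the groups compared, limma 3.58.1 on log2 of FPKM plus 1 or 0.1, a replicate block and leaving out each library. Permutation tests used SciPy 1.17.1.

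The genes named were the members, the other royal jelly rows, rows of the block with the 5 nearest on each side (those that were tested or lie between the members), the 10 most like genes, and the gland and marker genes of highest level. A few other rows of the gland and marker lists are named to show a limit of their list.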

Additional observations from a re-analysis of the deposited data

Results flagged for a closer look

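Rapeseed and pear libraries differed from each other, by the edgeR test of that difference itself, in 8 of the 9 tested royal jelly protein rows, 4 higher and 4 lower in rapeseed. Of all tested genes 7.94% were higher and 4.96% lower. The log2 fold change of rapeseed against pear was -1.90 for LOC107997173, -1.55 for LOC107997171, -1.40 for LOC107997172 and -1.20 for LOC107994025, and 0.33 for LOC107997174, 0.21 for LOC107997159, 0.34 for LOC108003955 and 2.33 for LOC107997170. LOC107997178 was the tested row that did not differ past the threshold. No cause was tested.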

How the results depend on the processing

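LOC107997171 and LOC107997173 kept their direction and their call between rapeseed and pear under all alternatives, at -1.72 to -1.39 and -2.07 to -1.76 when 1 library at a time was left out. LOC107997174 missed the threshold on FPKM plus 1 (0.303), on FPKM plus 0.1 (0.306) and with DESeq2 (0.342), with values of 0.185 to 0.419 when single libraries were left out. LOC107997178 ran from -0.196 to 0.0612 in the same way. LOC107997159 lost its call with library totals alone and without pear replicate 1, pear replicate 2 or rapeseed replicate 2. With FPKM in place of counts the members' share was 0.142% in rapeseed, 0.319% in pear and 14.2% in non-pollen, and the split moved by more than the spread for LOC107997171 (73.9%), LOC107997174 (3.62%) and LOC107997178 (10.3%) in non-pollen and for LOC107997178 (11.4%) in pear. FPKM divides each gene by its length. The cause of the other changes was not tested.

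With library totals alone the median log2 fold change over all genes was 0.47 for rapeseed and 0.53 for pear, both against non-pollen, and 90% and 91.8% of calls were then higher, compared with 49.4% and 51.2% under TMM. Between rapeseed and pear 39.9% were higher, against 61.6%, and 42.5% and 43% on FPKM plus 1 and plus 0.1. The members stayed between -4.65 and -8.20 against non-pollen throughout. No pairing by replicate number was seen: deviations of libraries that share a number had correlations of -0.151 to 0.0577, and only 1 library of 9 was closest to its own number. With the replicate block 1098 genes were called between rapeseed and pear, against 1194, and no call of a royal jelly row changed.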

Other observations

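LOC114577448, a row with no description on the minus strand of NW_016019131.1 from 500923 to 501490, between LOC107997171 and LOC107997172, had 3282, 5018 and 19 counts in the non-pollen libraries, beside 2, 1 and 3 in the rapeseed and 1, 1 and 1 in the pear libraries. Non-pollen replicate 3 thus held almost none of a transcript that the other non-pollen libraries held in large numbers, while its counts of LOC107997171 (5760328) and LOC107997172 (9910743) were as high as theirs. The row was singled out after its values were seen. Whether reads of the neighbouring plus-strand genes were counted in it was not tested.

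LOC107997181, also with no description, lies between LOC107997172 and LOC107997174 and had 0, 0 and 12 counts in rapeseed, 6, 3 and 15 in pear, and 135, 234 and 135 in non-pollen libraries. The length implied by counts and FPKM was 3561 to 3601 bases for LOC107997172, against 1627 to 1775 bases over the 4 members.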
